A study of Salmo salar with 30 samples.

Results

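RNA splicing and RNA-binding genes were described in the heads of Atlantic salmon (Salmo salar) juveniles at emergence. The 65 probes were taken by name from the study's supplementary gene lists, which hold the probes differentially transcribed between rearing environments over all families or within a family. A probe was taken if its gene name held splicing, ribonucleoprotein, pre-mRNA, RNA-binding or RNA helicase. Names with ribosomal, mitochondrial, ubiquitin or zinc finger were left out, as were 2 probes on the study's list of cell cycle and heart development genes. These 65 probes, out of 21117 measured, carry 52 gene names, and 11 of the names have more than 1 probe (24 probes in all). By role, 18 were small nuclear ribonucleoprotein (snRNP) and spliceosome core genes, 11 were SR proteins and other splicing regulators, and 10 were heterogeneous nuclear ribonucleoproteins (hnRNPs). Another 9 act in ribosomal RNA and small nucleolar RNP processing, 5 are other RNA helicases, and 12 are other RNA-binding proteins.

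Splicing removes introns from pre-mRNA in the spliceosome, a machine of small nuclear RNAs and proteins. The U1 and U2 particles mark the start of an intron and its branch site, the U4/U6 and U5 particles join them, and RNA helicases drive the rearrangements and release the finished mRNA. SR proteins bind exons and mostly favour their inclusion, whereas hnRNP proteins coat the transcript and often oppose it. Nervous tissue is known for extensive alternative splicing. H/ACA particles guide pseudouridylation of ribosomal RNA, and nucleolar helicases help to assemble ribosomes.

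The 30 juveniles came from 3 full-sib families, with 5 juveniles per family and environment. Each family was split at the eyed egg stage and kept with a gravel bed (enriched) or none (unenriched) until emergence. Family X11 had 2 wild parents, and families X22 and X35 each had a wild dam and a farmed sire. Each family had 1 tank per environment, so tank and environment cannot be told apart, and p-values measure only the spread between juveniles of a tank. Each array compared the head RNA of 1 juvenile (Cy5) with a pool of all samples (Cy3), and values are the authors' log2(Cy5/Cy3) ratios, so that 1 unit is a 2-fold difference. Whole heads were used, with brain, eyes and heart in the sample, and a change in the number of cells of a type cannot be told apart from a change in RNA per cell. Levels of different probes cannot be compared, because each ratio is relative to the pool.

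The arrays lay on 8 slides, with 28.2 to 42.9% of spots above the background limit in Cy5 (the mean local background plus 2 SD). In X11 only slide 4 held juveniles of both environments, and in X35 only slide 7. Slide can thus hardly be told apart from environment in X11 and X35. The lowest correlation between 2 arrays was -0.387; the dyes were stated in the methods, so the direction was kept. Juveniles 3, 4 and 5 of X35, in both environments, stood apart from all others on the first principal component of all probes (18.8% of the variance), at 78.5 to 135 against at most 53.8 elsewhere. For those of the 65 probes listed only under X11, the comparison between X22 and X35 and the counts for environment are given with and without these 6 juveniles. Of the 1950 values of the 65 probes, 26 were imputed by the authors (7 probes) and 299 had a Cy5 signal under the limit (29 probes). For 6 probes every juvenile of at least 1 group was under the limit. Values under the limit are given as measured, also where the text does not name the limit, so their depth is uncertain.

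The lists were made from the juveniles themselves, so the members were chosen by the difference between environments in these arrays, and the contrasts behind a listing are described here without a test. Of the 65 probes, 54 were listed only under X11. Another 9 were listed over all families (5 of them also under X11), DDX1 only under X22, and hnRNP L under X11 and X35. For the 54 probes, the X11 juveniles made the listing, and tests were run in X22 and X35. A probe also listed under X22, X35 or over all families is by this choice not among the 54, so a low count of environment differences in X22 and X35 is in part set by it. All 54 probes differed by at least 0.387 on the log2 scale between the environments of X11, with 34 higher and 20 lower in enriched juveniles. The 5 enriched juveniles lay above all 5 unenriched ones for 22 of the 54 probes (5.09% of all probes) and below them for 10 (6.14% of all probes). Since X11 chose these probes, nothing is read from those shares.

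Directions in X11 are given by role. Of all 65 probes, 36 were higher and 29 lower in enriched X11 juveniles. SR proteins and splicing regulators were mostly higher in enriched juveniles (9 of 11 probes, median difference 0.64), as were hnRNP probes (7 of 10, median 0.80) and other RNA-binding proteins (7 of 12, median 0.62). Spliceosome core probes were mostly lower (12 of 18, median -0.52). Ribosomal RNA and snoRNP probes were split 5 higher to 4 lower, and the other helicases 2 to 3. The median over all 21117 probes was -0.015. Of the 2871 other probes listed only under X11, 45.2% were higher and 54.8% lower, with a median of -0.47. The 14 core probes listed only under X11 were close to that, with 8 lower (57.1%) and a median of -0.48.

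**Figure D1:**
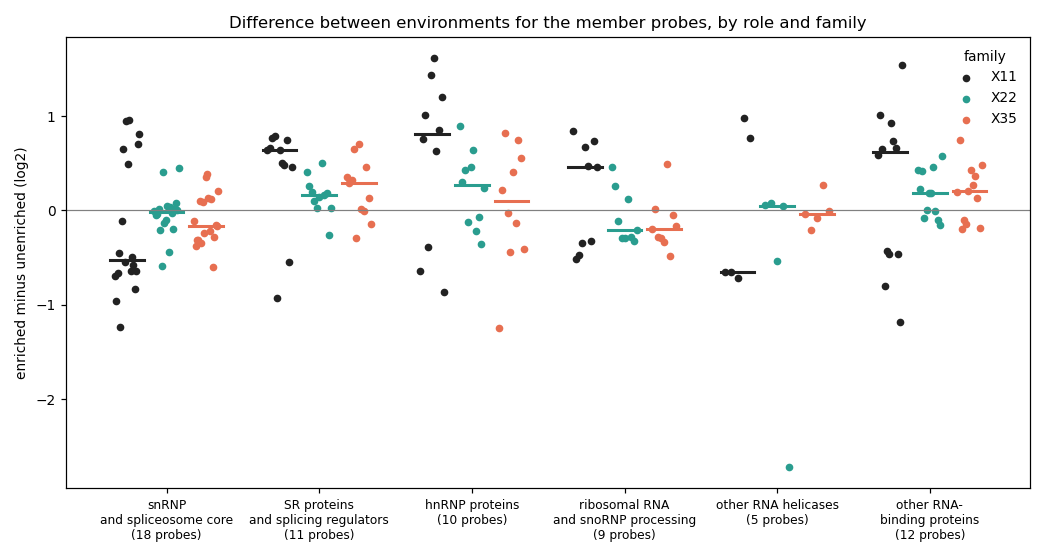
Difference in log2(Cy5/Cy3) between enriched and unenriched juveniles (5 against 5) for each of the 65 probes, by role (horizontal axis) and family (colour), with the role's median as a bar. X11 spreads from -1.24 to 1.62, with the SR and hnRNP probes mostly above 0 and the spliceosome core mostly below, whereas most X22 and X35 differences lie nearer 0. The lowest point, DDX1 in X22, rests on enriched values that were all under the Cy5 limit and gives no fold.

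Among the spliceosome core genes, the SF3 complexes, which bind the branch site as parts of the U2 particle, went both ways in X11. SF3A3 (probe C261R155) stood at 0.15, 0.29, -0.07, 0.93 and 1.17 in the 5 unenriched X11 juveniles and at 1.36, 1.55, 1.18, 1.37 and 1.05 in the enriched ones. The groups overlapped through the highest unenriched juvenile. SF3B6 (C201R035), the p14 subunit that touches the branch site, stood at 1.06, 0.91, 1.12, 0.33 and 1.14 in unenriched and 1.00, -0.28, 0.02, -0.23 and -0.10 in enriched X11 juveniles. Of the enriched juveniles, 1 reached the unenriched level and the others lay below all of it. SF3B1, the largest SF3B subunit, was lower in enriched X11 juveniles on both of its probes (-0.69 and -0.97), and SF3A1 (C075R079) was lower, at -0.46. DHX8, the helicase that releases the spliced mRNA, was lower on all 3 probes, at -0.64, -0.64 and -1.24. The largest of these (C085R026) compared 1.82, 0.97, 1.11, 0.98 and 1.00 in unenriched with 0.70, -0.56, -0.18, -0.17 and -0.11 in enriched X11 juveniles. All 5 enriched arrays were under the Cy5 limit for this probe, and 3 of 5 unenriched ones were above it, which put unenriched at least 1.42-fold higher.

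Other core members of X11 that were higher in enriched juveniles were SNRPC (U1 C, which steadies U1 on the intron's start; 0.96), PRPF31 (which links U4/U6 to U5; 0.95), SNRPA1 (U2 A', 0.70), the Sm ring protein SNRPD2 (0.65) and EFTUD2 (the U5 GTPase; 0.49). Those lower were SNRPB2 (U2 B'', -0.66), SNRNP40 on C104R018 (a U5 protein, -0.54) and RNPC3 (of the minor spliceosome, -0.50). In X22 and X35 none of the 14 core probes listed only under X11 had an unadjusted p under 0.05 for environment, in either family or in both together, and the median difference was -0.05 in the 2 families together. In the 2 families together the smallest p was that of EFTUD2 (C140R114). It stood at -0.40, 0.01, -0.47, 0.01 and -0.07 in unenriched and 0.07, -0.20, -0.10, -0.16 and -0.29 in enriched X22 juveniles. In X35 its values were -0.33, -0.33, -0.39, -1.03 and -0.41 in unenriched and -0.13, 0.36, -0.17, -0.56 and -0.09 in enriched juveniles. The groups overlapped in both families, and the common difference was 0.22 (SE 0.12, limma adjusted p = 0.586, n = 10 per environment).

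SNRPF (C199R109), SNRNP40 on C089R012, SF3B1 on C043R036 and DHX8 on C153R084 were listed over all families, and their values are a description. SNRNP40 (C089R012) stood at 0.15, 0.20, 0.07, -0.10 and -0.13 in unenriched and -0.29, -0.53, -0.38, -0.46 and -1.11 in enriched X22 juveniles, with all enriched juveniles below all unenriched ones. Its enriched minus unenriched difference was -0.59 in X22, -0.34 in X35 and -0.11 in X11. SNRPF, another Sm ring protein, differed by -0.58 in X11, -0.20 in X22 and -0.60 in X35. SF3B1 on C043R036 differed by -0.96 in X11 but by -0.05 in X22 and -0.38 in X35. Over all families these 4 core probes were lower in enriched juveniles.

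Of the SR proteins and splicing regulators, all 11 listed only under X11, SRSF2, SRSF3, SRSF6, SRSF11 and RBM39 were higher in enriched X11 juveniles on each of their 9 probes, by 0.47 to 0.79. SRSF4 (C104R117) and RBM17 (SPF45, a 3' splice site factor) were lower, at -0.93 and -0.54. SRSF4 stood at 0.60, 0.78, 0.49, 0.36 and 0.05 in unenriched X11 juveniles and at -0.07, -0.62, -0.62, -0.51 and -0.54 in enriched ones, without overlap. In X22, 10 of the 11 probes were higher in enriched juveniles and in X35 8 of 11, with medians of 0.17 and 0.29, against medians of 0.00 over all probes in both families. In a single family, 1 of these differences had a p under 0.05. That was SRSF2 on C174R079, at -0.36, 0.27, -0.12, -0.10 and 0.46 in unenriched and 0.67, 0.65, 0.62, 0.49 and 0.20 in enriched X22 juveniles. The groups overlapped, the difference was 0.50 (SE 0.18, limma adjusted p = 0.418, n = 5 against 5), and in X35 it was 0.02 (SE 0.40).

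RBM39, a U2AF-like splicing coactivator, and SRSF2 gave the smallest p among the SR probes in the 2 families together. RBM39 differed by 0.38 (95% interval -0.09 to 0.85) on C029R069 and by 0.32 (-0.21 to 0.85) on C196R098. SRSF2 on C084R083 differed by 0.26 (-0.15 to 0.68). None of the 3 passed, with limma adjusted p of 0.601, 0.696 and 0.688. SRSF11 differed by 0.27 and 0.37 on its 2 probes and SRSF6 by 0.42.

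Most hnRNP probes were higher in enriched X11 juveniles. HNRNPA1, which often blocks splice sites, was higher in enriched X11 juveniles by 1.62 on C194R139 and 0.75 on C023R044. HNRNPR, a neuronal mRNA-binding protein, was higher by 1.43 (C159R155) and 0.86 (C235R046), and HNRNPUL1 by 1.21. HNRNPQ (SYNCRIP, a partner of HNRNPR in neuronal mRNA granules) was higher by 1.01 and HNRNPH by 0.63. Of the 5 unenriched X11 arrays, 4 were under the Cy5 limit for C159R155 and 3 for HNRNPA1 on C194R139. For C235R046 and HNRNPUL1 it was 2 each, so the size of these differences rests in part on dim values. C159R155 was also under the limit on 4 of 5 arrays in each X22 and X35 group. HNRNPQ (C031R067) stood at 0.68, -0.30, 0.46, 1.14 and 1.06 in unenriched and at 1.43, 1.64, 1.75, 1.59 and 1.68 in enriched X11 juveniles, without overlap. HNRNPK was lower on both probes (-0.39 and -0.87). In X22 the values of HNRNPQ were 0.36, 0.43, 0.63, 0.29 and 1.15 unenriched and 1.72, 1.06, 0.59, 0.75 and 0.86 enriched. In X35 they were 0.96, 1.49, -4.57, -3.01 and -2.92 unenriched and 1.10, 1.29, -2.38, -0.88 and -3.07 enriched, so that 3 juveniles of each environment were far below the others. In each X35 group, 3 of 5 arrays were under the Cy5 limit for HNRNPQ, so how far below is uncertain. The difference in X22 and X35 together was 0.62 with a 95% interval of -0.77 to 2.02 (limma adjusted p = 0.782), and 0.30 (-0.11 to 0.70) without these 6. None of the 9 hnRNP probes listed only under X11 had a p under 0.05 in X22, X35 or both together.

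HNRNPL (C018R137), which regulates splicing at CA repeats, is described without a test because X11 and X35 listed it. The study used a looser threshold for the X35 list than for X11 and calls those probes marginally significant. It stood at 0.48, 0.37, 0.29, 0.15 and 0.19 in unenriched and -0.16, -0.53, -0.21, -0.12 and -0.73 in enriched X11 juveniles, a difference of -0.65. In X35 it was lower in enriched juveniles as well (-1.24), at 0.82, 0.82, 0.88, 0.95 and -0.21 against -0.43, -1.11, -0.68, -0.15 and -0.59, with 1 unenriched juvenile in the enriched range. In X22 it was higher in enriched juveniles by 0.89, at -0.35, -0.52, 0.99, -0.48 and -0.62 against 0.74, 0.65, -0.56, 1.13 and 1.51. In each environment of X22, 1 juvenile lay with the other environment.

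Of the ribosomal RNA and snoRNP genes, the H/ACA proteins NHP2 (C237R006) and NOP10 (C264R046) were higher in enriched X11 juveniles by 0.74 and 0.46, and GAR1 (C101R107), of the same particle, was lower, at -0.47. In X22 and X35, NHP2 and NOP10 went the other way, at -0.32 and -0.04 for NHP2 and -0.21 and -0.17 for NOP10, and neither passed the test in the 2 families together (limma adjusted p = 0.661 and 0.615). NOB1, the nuclease that trims the small ribosomal subunit RNA, likewise went from 0.67 in X11 to -0.29 and -0.34, also without passing (adjusted p = 0.622). The nucleolar helicase DDX49 (C039R102) was higher in enriched X11 juveniles by 0.84. In X22 it stood at -0.39, 0.26, -0.41, 0.38 and 0.60 in unenriched and 0.39, 0.79, 0.56, 0.43 and 0.59 in enriched juveniles, a difference of 0.46 (SE 0.21, limma adjusted p = 0.48). In X35 the difference was -0.20 (SE 0.25). DDX21 was higher (0.47) and DDX18 lower (-0.52) in enriched X11 juveniles.

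GAR1, DDX27 (C206R043), a helicase of large subunit assembly, and RBM28 (C146R082), a nucleolar protein, were listed over all families and had a lower mean in enriched juveniles in every family. The differences of DDX27 were -0.32 in X11, -0.28 in X22 and -0.48 in X35. RBM28 was lower, at -0.35, -0.30 and -0.30 and GAR1, at -0.47, -0.12 and -0.28.

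Among the other helicases, DDX1 (C173R009), part of the tRNA ligase complex, was listed only under X22. It stood at 1.10, 0.30, 0.45, -0.61 and -0.13 in unenriched and -2.43, -1.92, -1.75, -2.81 and -3.61 in enriched X22 juveniles, without overlap. Cy5 lay below the limit on all 5 enriched and 3 of 5 unenriched X22 arrays, and 2 enriched values were imputed, so no fold is given. It was under the limit on every array of X11 and X35. DHX29, a helicase of translation initiation, was under the limit on all 30 arrays. TDRD9 (C117R002), a piRNA helicase in the mouse germ line, was higher in enriched X11 juveniles by 0.98, and DHX30, a mitochondrial helicase, was lower, at -0.65, as was a helicase without a further name (C001R029, -0.65). For these 3 probes the differences in X22 and X35 together were 0.16, -0.06 and 0.01, and none had a p under 0.05.

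The other RNA-binding proteins included the only 2 probes of the 54 with a p under 0.05 for environment in X22 and X35 together. Musashi 1 (MSI1, C205R088), a regulator of translation in neural progenitors, stood at -0.47, 0.42, -0.76, 0.04 and 0.29 in unenriched and 0.61, 0.19, -0.12, 0.53 and 0.58 in enriched X22 juveniles. In X35 it stood at -0.24, -0.21, -0.45, -0.70 and -0.23 and 0.43, 0.29, -0.32, -0.49 and -0.41. The groups overlapped in both families, and the difference was 0.36 (SE 0.16, limma adjusted p = 0.489). RBPMS2 on C085R070, known from smooth muscle precursors, differed by 0.48 (SE 0.23, limma adjusted p = 0.52), and its second probe C221R019 by 0.17 (adjusted p = 0.872, by limma). Both were higher in enriched X11 juveniles, MSI1 by 0.73 and RBPMS2 by 1.02 and 0.66.

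RTCB (C266R046), the ligase that joins tRNA exons, was higher in enriched X11 juveniles by 1.54, but all 5 unenriched arrays were under the Cy5 limit and no bound above 1 could be had. In X22 it stood at -0.36, 0.23, 0.18, 0.78 and 0.26 in unenriched and 1.48, 0.58, 1.08, 0.58 and 0.25 in enriched juveniles (limma adjusted p = 0.466). The unenriched X22 arrays were all under the limit too, which left enriched, with 2 of 5 arrays above the limit, at least 1.06-fold higher. Further probes were RBM12B, higher in enriched X11 juveniles by 0.93, and RBM45, RPRD1B and RBM4B, lower, at -0.80, -0.46 and -0.43. SERBP1 (C031R158), an mRNA-binding protein on ribosomes, was the only probe of the 9 listed over all families that was higher in enriched juveniles, by 0.59, 0.43 and 0.20 in X11, X22 and X35.

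Rearing environment was then tested for all 54 probes in X22 and X35. In both families together, in a limma fit of 20 arrays with family as a term, 0 of the 54 probes passed an adjusted p of 0.05 (0.0189% of all probes did). At an unadjusted p of 0.05, 2 of the 54 were higher in enriched juveniles (4.34% of all probes) and 0 were lower (5.27%). The median difference was 0.09, against 0.00 over all probes. In X22 alone, 0 of the 54 passed the adjusted p (0.00474% of all probes), and at an unadjusted p of 0.05 SRSF2, RTCB and DDX49 were higher (3 of 54, against 4.15% of all probes) and 0 were lower (6.21%). In X35 alone, 0 passed the adjusted p (0% of all probes) and 0 an unadjusted p of 0.05 (4.95%). The groups did not overlap for 0 of the 54 probes in X22 (2.22% of all probes) and 0 in X35 (1.1%). The members' share was thus near or below the background in each of these fits. Without the 6 X35 juveniles that stood apart, only juveniles 1 and 2 of each X35 environment were left. In that X35 fit 7 of the 54 probes (1 higher and 6 lower in enriched juveniles) had an unadjusted p under 0.05. This was a higher share than the 9.11% of all probes in that fit. Of the 54 probes, 0 passed the adjusted p in X35 or in X22 and X35 together.

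The 95% intervals of these differences had a median half-width of 0.42 on the log2 scale, and they left out the difference seen in X11 for 39 of the 54 probes. The X11 differences chose the probes, and this count is a description. The environment effect was also compared between X22 and X35, by the limma interaction term. An unadjusted p under 0.05 was found for 0 of the 54 probes (against 5.87% of all probes), and an adjusted one for 0 (0% of all probes). With limma array weights the unadjusted count was 4, against 7.07% of all probes.

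**Figure D2:**
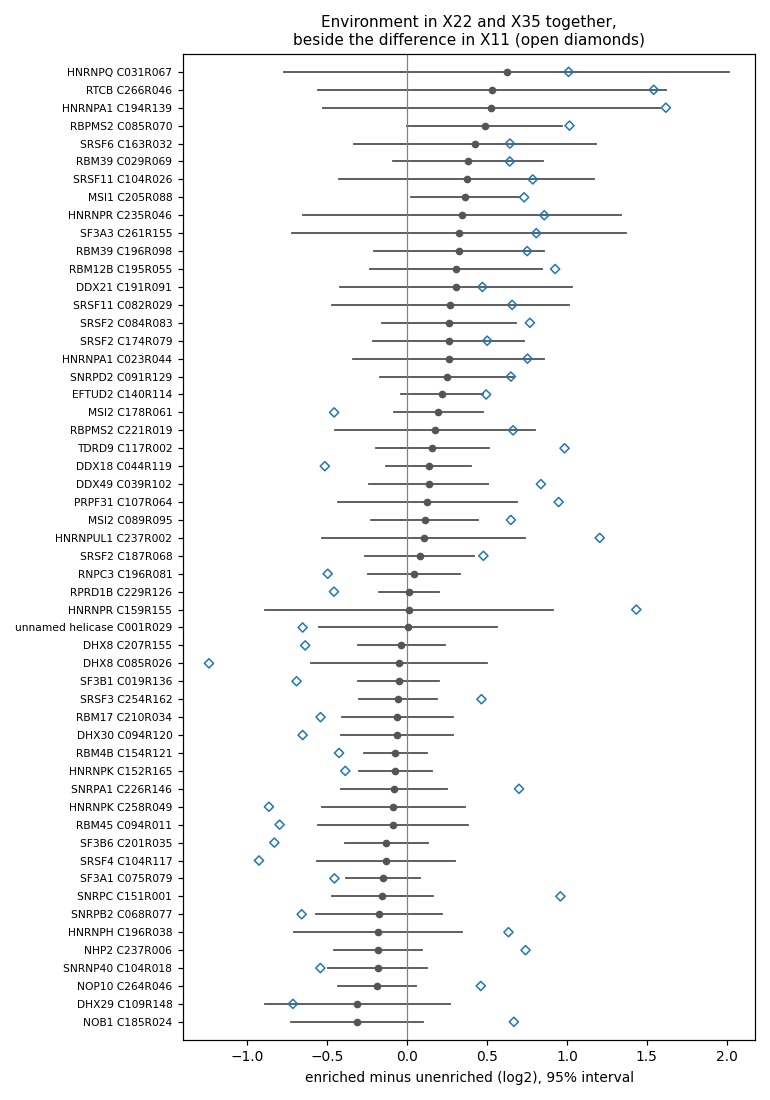
Enriched minus unenriched difference (log2) in X22 and X35 together (dots, with 95% intervals from limma, n = 10 per environment) for the 54 probes listed only under X11, sorted, with the X11 difference as an open diamond. No probe passed an adjusted p of 0.05, and the diamonds lie outside the interval for 39 probes. The X11 differences chose the probes and are drawn without their error, so this count is a description.

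By sign, 25 of the 34 probes that were higher in enriched X11 juveniles were also higher in X22 and 24 in X35. Of the 20 probes lower in X11, 11 were lower in X22 and 14 in X35. Among the 2871 other probes listed only under X11, the shares were 67.4% and 75.7% for those higher in X11 (1298 probes), and 44.2% and 57.6% for those lower (1573 probes). Over all probes higher in X11 they were 54.1% and 58.3%, and of the 10854 probes lower in X11, 5861 were lower in X22 and 6141 in X35. These signs are given as a description with no test.

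Between X22 and X35, 12 of the 54 probes were higher in X22 (6.93% of all probes) and 3 lower (4.85%) at a limma adjusted p of 0.05, with environment as a term and 10 juveniles per family. That is 27.8% of the 54 probes, beside 21.8% of the 2871 other probes listed only under X11. The probes higher in X22 were SF3A3, RTCB, both probes of RBPMS2, both of SRSF11, SRSF6, HNRNPUL1, RBM39 on C196R098, DDX49, SRSF2 on C174R079 and NHP2. Those lower were SRSF4, SNRPB2 and SF3B6. By role, 6 of 11 SR probes passed, 3 of 14 core probes, 3 of 10 other RNA-binding probes, 2 of 6 ribosomal RNA and snoRNP probes, 1 of 9 hnRNP probes and 0 of 4 other helicases. All 34 probes higher in enriched X11 juveniles had a higher mean in X22 than in X35, with a median difference of 0.70. Without the 6 X35 juveniles that stood apart, 24 of the 34 were higher in X22 and the median difference was 0.13. Among the other listed probes higher in X11 the share was 89.1% and the median 0.50. Of the 20 probes lower in X11, 14 were lower in X22 than in X35, and 8 without the 6 juveniles. Family cannot be told apart from tank in this comparison, and hardly from slide, since only slide 8 held juveniles of both families.

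SF3A3 had the largest family difference. Its values in X22 were 1.27, 0.99, 0.51, 1.26 and 1.33 in unenriched and 2.22, 1.48, 1.53, 1.40 and 0.97 in enriched juveniles. In X35 they were 0.61, 1.52, -2.36, -2.43 and -2.29 in unenriched and 0.73, 0.71, -0.68, -2.01 and -2.69 in enriched juveniles. Juveniles 3, 4 and 5 of both X35 environments lay below all X22 juveniles, whereas juveniles 1 and 2 lay within the X22 range. The difference was 2.18 (SE 0.50, limma adjusted p = 0.0108), and 0.40 without those 6 juveniles (adjusted p = 0.627). In each X35 group, 3 of 5 arrays were under the Cy5 limit for it.

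RBPMS2 and SRSF11 were higher in X22 on both of their probes. RBPMS2 on C085R070 stood at -0.33, -0.15, -1.45, -2.01 and -1.95 in unenriched and 0.01, 0.41, -0.87, -0.79 and -0.91 in enriched X35 juveniles, against 0.01, 0.57, -0.03, 0.40 and 0.21 and 0.49, 0.36, 0.49, 0.57 and 0.38 in X22. Here too juveniles 3, 4 and 5 lay below all X22 juveniles, but the unenriched juveniles 1 and 2 lay below them as well, less far. The family difference was 1.15 (SE 0.23, limma adjusted p = 0.00551), and 1.51 on C221R019 (adjusted p = 0.00506). Without the 6 juveniles it was 0.36 and 0.64. SRSF11, an SR-related regulator of neuronal microexons in mammals, stood on C104R026 at 0.14, 0.34, -1.26, -2.17 and -2.87 in unenriched and 0.04, 0.95, -1.18, -0.37 and -2.01 in enriched X35 juveniles. In X22 the values were 0.83, 1.03, 0.40, 0.20 and 0.61 and 0.95, -0.03, 0.68, 0.67 and 1.28. The 3 lowest juveniles of each X35 environment were again numbers 3, 4 and 5. SRSF11 differed between the families by 1.50 and 1.38 on its 2 probes (adjusted p = 0.0179 and 0.0191), and by 0.30 and 0.22 without the 6 juveniles. C104R026 was under the Cy5 limit on 4 of 5 enriched and all 5 unenriched X35 arrays. The second SRSF11 probe, C082R029, was under it on 3 of 5 arrays in each X35 group. RBPMS2 on C221R019 was under it on 3 enriched and 4 unenriched X35 arrays.

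**Figure D3:**
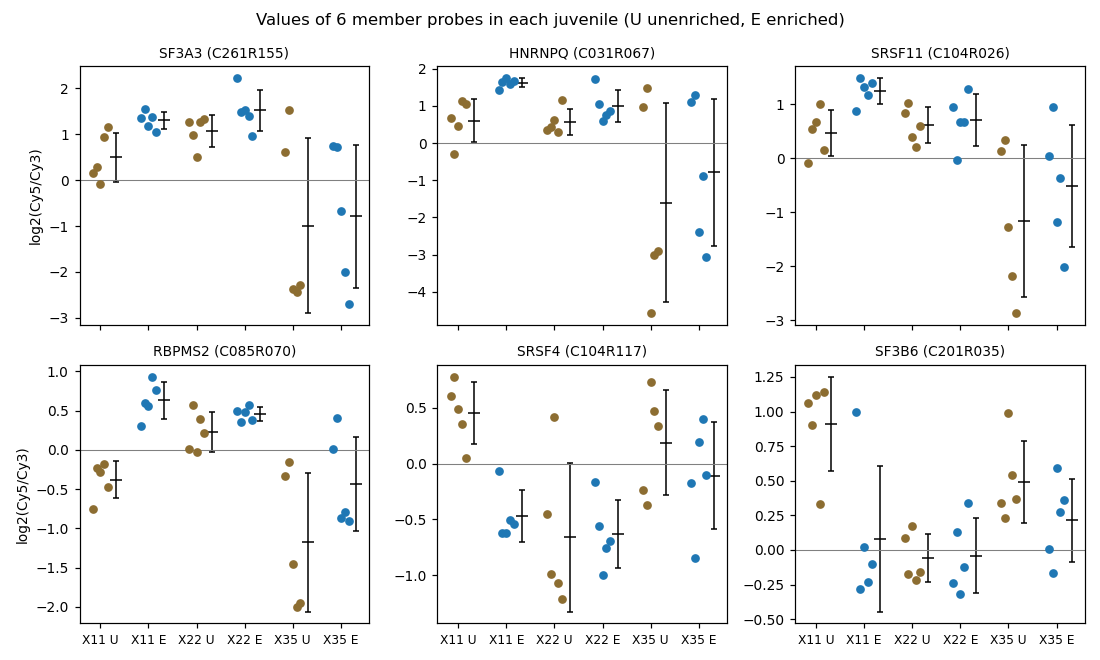
Log2(Cy5/Cy3) of 6 probes in each juvenile (vertical axis), by family and environment (U unenriched, E enriched), with the group mean and SD (n = 5) to the right of the points. For SF3A3, HNRNPQ, SRSF11 and RBPMS2 the X35 groups split into 2 higher and 3 lower juveniles, whereas SRSF4 and SF3B6 have their highest mean in unenriched X11 juveniles.

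Of the other probes that passed, RTCB differed by 1.96 (SE 0.52), SRSF6 by 1.12, HNRNPUL1 by 1.10 and RBM39 (C196R098) by 1.00. Without the 6 X35 juveniles these differences were 0.47, 0.01, 0.18 and 0.21. DDX49 differed by 0.88 and SRSF2 (C174R079) by 0.73, and by 0.48 and 0.31 without the 6. In X35, HNRNPUL1 was under the Cy5 limit on 3 of 5 arrays in each group. RBM39 on C196R098 was under it on 2 enriched and 3 unenriched X35 arrays, and DDX49 on 3 and 4. RTCB stood at 0.12, 0.79, -1.98, -4.89 and -2.54 in unenriched and -0.42, -0.36, -2.23, -0.29 and -2.79 in enriched X35 juveniles, with 5 of 5 enriched and 4 of 5 unenriched arrays under the Cy5 limit. The adjusted p of SRSF6 was 0.0489, and its values include 4 imputed ones in X35 and 3 in enriched X22 juveniles. Its arrays under the Cy5 limit were 4 of 5 in each X35 group and 3 of 5 in each X22 group. NHP2 differed by less (0.46), and its X35 values did not split in this way, at -0.68, 0.06, -0.66, -0.30 and -0.24 in unenriched and -0.86, -0.12, -0.16, -0.45 and -0.45 in enriched juveniles. Without the 6 juveniles its difference was 0.47 (adjusted p = 0.411, by limma). The 3 probes lower in X22 differed by -0.69 (SRSF4), -0.60 (SNRPB2) and -0.40 (SF3B6), and by -0.24, -0.45 and -0.15 without the 6. HNRNPQ differed by 1.98 with a limma adjusted p of 0.0564, just outside the threshold, and by -0.43 without the 6 (adjusted p = 0.531). Its SD within the X35 environments was the largest of the 54 probes (2.35).

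The number of probes that passed depended on few juveniles, and it was 10 with slide as a random block. The median difference of the 12 probes higher in X22 was 1.14 over all juveniles, and 11.8% of all probes passed. Without the 6 X35 juveniles that stood apart, 0 of the 15 probes passed (0.398% of all probes), with adjusted p from 0.378 to 0.994, and the median of the 12 was 0.34. All 15 kept their sign. Without the 3 enriched ones of these alone, 0 passed as well (1.61% of all probes, adjusted p from 0.0688 to 0.268) and the median was 0.95. With slide as a random block 10 of the 15 passed (8.68% of all probes) and the median was 1.14. With slide as a fixed block 0 passed (0.298% of all probes) with a median of 1.53, the 15 kept their sign, and only slide 8 held juveniles of both families. On slide 8, the X22 juvenile lay above both X35 juveniles for all 12 probes that were higher in X22, and below both for 2 of the 3 that were lower. Both of these X35 juveniles were among the 6 that stood apart. The fixed block and this count thus cannot tell family from those juveniles, and nothing is read from them. Leaving out 1 juvenile at a time gave 8 to 27 probes, while 7.04 to 16.8% of all probes passed. The count was 8 without X35 unenriched juvenile 3 or 4 or enriched juvenile 5 (7.04 to 7.33% of all probes). It was 9 without X22 unenriched juvenile 2 or 4 (7.89 and 8.68%). It was 24 without X35 unenriched juvenile 1 (14.5%) and 27 without X35 unenriched juvenile 2 (16.8%). All these counts are of probes past a limma adjusted p of 0.05.

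**Figure D4:**
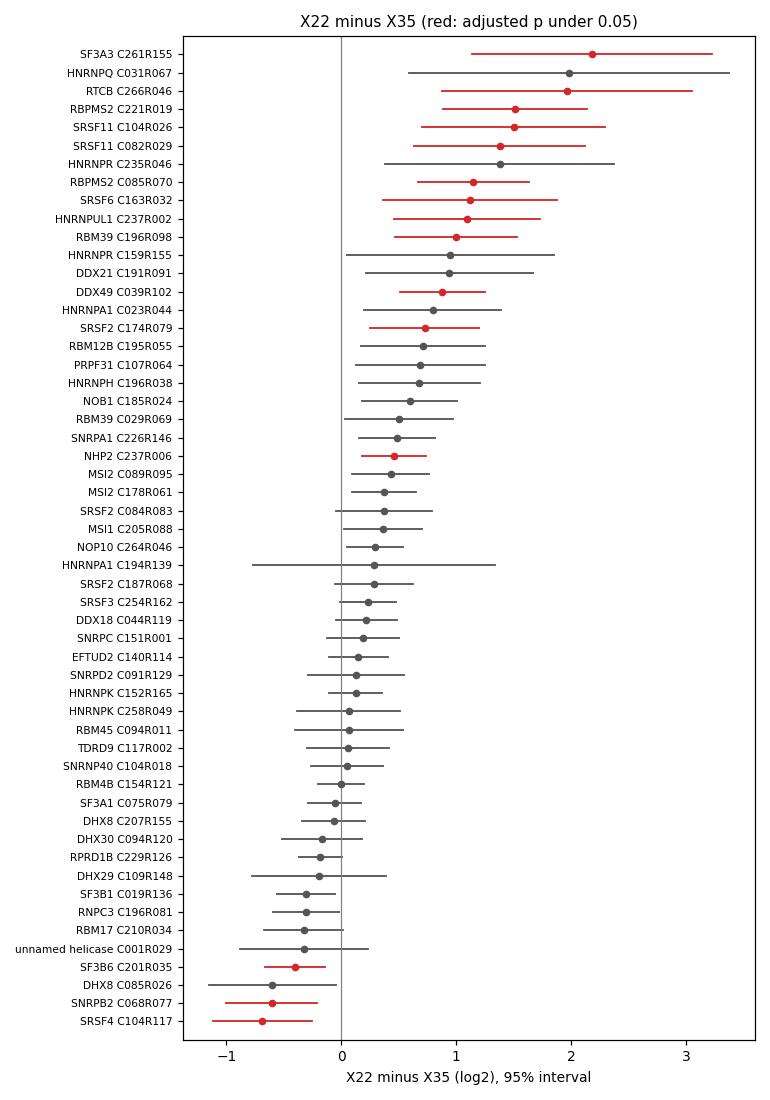
Difference between families (X22 minus X35, log2, with 95% intervals from limma, n = 10 per family) for the 54 probes listed only under X11, sorted. The 15 probes past an adjusted p of 0.05 are in red, 12 of them above 0, from 2.18 for SF3A3 to -0.69 for SRSF4.

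Seen by juvenile, the median of the 34 probes higher in enriched X11 juveniles lay at 0.10 to 0.66 in X22. In X35 it lay at -0.004 to 0.43 in juveniles 1 and 2 and at -1.27 to -0.45 in juveniles 3, 4 and 5. In X11 it was -0.35 to -0.05 in unenriched and 0.46 to 0.78 in enriched juveniles, as the choice of probes sets it. The median of the 20 probes lower in enriched X11 juveniles lay at 0.07 to 0.41 in X35 juveniles 3, 4 and 5, at -0.25 to -0.04 in juveniles 1 and 2, and at -0.21 to 0.29 in X22. The median of the hnRNP probes was -1.34 to -0.47 in X35 juveniles 3, 4 and 5 and 0.22 to 0.74 in juveniles 1 and 2, and that of the spliceosome core was -0.10 to 0.26 and -0.20 to 0.09. The core median covers probes that went both ways. Of the 14 core probes, 7 had a higher mean in X22 than in X35 and 7 a lower one. The core probe SF3A3 stood at -2.695 to -0.675 in X35 juveniles 3, 4 and 5. The within-environment SD exceeded 1 for 9 of the 54 probes in X35 (4.23% of all probes), for 1 in X22 (1.2%) and for 0 in X11 (1.03%).

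**Figure D5:**
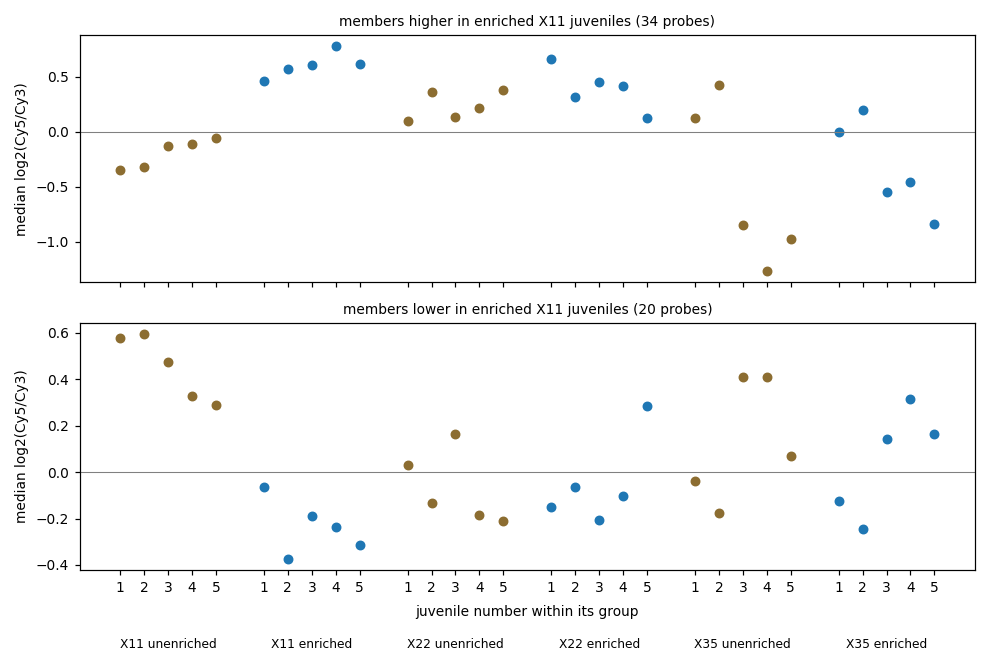
Median log2(Cy5/Cy3) of the 34 probes higher (top) and the 20 lower (bottom) in enriched X11 juveniles, in each of the 30 juveniles (blue enriched, brown unenriched). X35 juveniles 3 to 5 of both environments are the lowest in the top panel, at -1.27 to -0.45.

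Other measures are given for the same juveniles, and their part in the results was not tested. For each of them the range of X35 juveniles 3, 4 and 5 overlapped that of the other 4 X35 juveniles. Spots above the Cy5 limit made up 28.2 to 39.1% in X35 juveniles 3, 4 and 5, against 37.1 to 40.4% in the other 4. The 28.2% was that of enriched juvenile 4 alone, and the rest of these lay at 36.1 to 39.1%. The median of 8 nerve cell markers was -0.56 to 0.42 in these 6 and 0.12 to 0.54 in the other 4, and -0.04 to 0.61 in X22. The median of 9 heart muscle markers was -0.45 to 0.98 and -0.58 to 0.08, and that of 5 eye markers 0.30 to 0.54 and 0.17 to 0.42, against -0.80 to 0.20 in X22. The median of 4 blood markers was -0.38 to 0.33 and -0.23 to 0.25. Within 1 environment some ranges lay apart. In unenriched X35 the nerve cell median was 0.27 and 0.30 in juveniles 1 and 2, and -0.26, -0.56 and -0.215 in juveniles 3, 4 and 5. In enriched X35 the nerve cell ranges overlapped. Spots above the Cy5 limit made up 39.7 and 40.4% in enriched X35 juveniles 1 and 2. In juveniles 3, 4 and 5 they made up 36.2, 28.2 and 36.1%. In unenriched X35 these shares overlapped. In X11, heart muscle markers lay at -0.12 to 0.86 in unenriched and -0.79 to -0.30 in enriched juveniles, eye markers at 0.54 to 1.27 and -0.10 to 0.30, and 122 cell cycle probes at 0.01 to 0.20 and -0.44 to -0.33. These markers were named from the study's lists, made on these juveniles, so they are no independent measure of tissue share.

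The probes of a gene mostly went together in X11, which chose most of them, and between X22 and X35. Of the 11 genes with more than 1 probe, 10 had a single sign on all probes in X11 and 11 had a single sign between X22 and X35. For environment in X22, the probes of HNRNPK, HNRNPR, RBPMS2 and DHX8 differed in sign. For environment in X35, those of SRSF2, HNRNPR, Musashi 2 and DHX8 did. The exception in X11 was Musashi 2, which was higher in enriched juveniles on C089R095 (0.65) and lower on C178R061 (-0.46). The latter probe is named for isoform 1. It stood at 0.78, 0.57, 0.52, 0.82 and 0.44 in unenriched and 0.28, -0.05, 0.20, 0.28 and 0.13 in enriched X11 juveniles, and C089R095 at -0.31, -0.19, -0.37, 0.25 and 0.44 and 0.28, 0.53, 0.98, 0.84 and 0.44. C089R095 was under the Cy5 limit on 4 of 5 unenriched and 1 of 5 enriched X11 arrays, so its difference rests in part on dim values. C178R061 was under it on none of these arrays. HNRNPA1 on C194R139 stood at -3.57 in unenriched X22 juvenile 3 and at 0.01 to 1.43 in the other X22 juveniles, and gave an interval of -0.53 to 1.58 for environment in the 2 families.

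Other RNA-processing genes on the same lists, 59 probes outside the 65, were counted beside them. Of these, 8 other spliceosome probes, 11 of 3' end formation, poly(A) and export, 12 of other mRNA-binding genes and 11 of ribosomal RNA processing were listed only under X11. For environment in X22 and X35 together none of these 42 passed an adjusted p of 0.05 (0.0189% of all probes did). At an unadjusted p under 0.05 there was 1 spliceosome probe (9.61% of all probes). Between X22 and X35, 0 of 8, 1 of 11, 5 of 12 and 4 of 11 passed, and the median differences were 0.12, 0.21, 0.98 and 0.66. Beside them, 11.8% of all probes and 21.8% of the 2871 other probes listed only under X11 passed. These lists were not counted without the 6 X35 juveniles that stood apart, where 0.398% of all probes passed. The median of the 54 probes was 0.33, and these lists were not compared by a test.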

How the data were processed

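RNA from 30 juvenile heads was hybridised to 2-colour 4x44K salmonid arrays, with the juvenile in Cy5 and a pool of all samples in Cy3, without dye swap. Per the labels and methods, the authors quantified spot intensity (median signal) in Imagene, subtracted background, applied loess within each array, removed spots under a Cy3 limit and imputed missing values. The deposited log2 ratios of 21117 probes were used as given; 1.07% of values were imputed, and they correlated with ratios recomputed here from the scanner intensities at r of at least 0.9974. Column medians were -0.074 to -0.004. Fits used limma 3.58.1 in R 4.3.3 (lmFit, eBayes) with Benjamini-Hochberg adjustment over all 21117 probes, and environment and family as terms. The limma step was tested on simulated data with known changes.

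Gene names come from the study's lists, and symbols and roles were assigned here from those names. The members and lists were chosen with earlier results of these data known. Genes named in the text were those listed over all families (1 of them is counted but not reported here), HNRNPL, every gene with more than 1 probe, and the 3 smallest p per role in X22 and X35 together. The other members were added for completeness or, for the family comparison, after their values were seen. A bound ("at least") was made where all arrays of 1 group were under the Cy5 limit, and sets those arrays at the ratio at that limit. The other group kept its measured values, also on its arrays under the limit, so the bound rests in part on dim values. Where the study's lists held fold changes, these were not used. Alternatives were scanner values without imputation or with normexp (offset 50), scaling between arrays, array weights, a filter on dim probes, slide as a block, replicate number as a block, and leaving out juveniles. Marker lists were taken by name from the study's lists.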

Additional observations from a re-analysis of the deposited data

Results flagged for a closer look

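In 24 of 384 groups of 5 juveniles (64 probes in the 6 groups of family and environment), 1 juvenile lay far from the other 4 (a gap over 0.71 of the group's range), where chance gives about 1 in 20 groups. The values below are log2(Cy5/Cy3), and the causes were not tested. Juvenile 3 of unenriched X22 stood apart for HNRNPA1 on C194R139 (-3.57, the others 0.91 to 1.43), HNRNPL (0.99, the others -0.62 to -0.35) and SERBP1 (-0.63, the others -0.16 to 0.01). Juvenile 5 of enriched X22 stood apart for RBPMS2 on C221R019 (-0.28, the others 0.66 to 0.96), SNRNP40 on C089R012 (-1.11, the others -0.52 to -0.29), DDX27 (-1.06, the others -0.42 to -0.16) and RBM45 (1.31, the others -0.45 to 0.05). Juvenile 1 of enriched X22 stood apart for HNRNPA1 on C194R139 (0.01, the others 0.91 to 1.18) and SRSF6 (1.55, an imputed value, the others 0.63 to 0.87).

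Also in X22, HNRNPH was at 0.67 in unenriched juvenile 2 (the others 0.13 to 0.24), Musashi 2 on C178R061 at 0.26 in unenriched juvenile 4 (0.63 to 0.72) and TDRD9 at 0.55 in enriched juvenile 4 (-0.66 to -0.47). In X11, enriched juvenile 1 stood apart for SRSF4 (-0.07, the others -0.62 to -0.51) and SF3B6 (1.00, the others -0.28 to 0.02). Enriched juvenile 4 did so for HNRNPUL1 (2.03, the others 0.67 to 0.94) and RBM12B (0.84, the others 0.30 to 0.39). DHX8 on C085R026 was at 1.82 in unenriched X11 juvenile 1 (0.97 to 1.11) and RBM4B at -0.09 in unenriched juvenile 5 (0.10 to 0.16).

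In X35, enriched juvenile 2 stood apart for SF3B1 on C043R036 (-0.86, the others 0.02 to 0.23) and RNPC3 (-0.51, the others 0.14 to 0.36), and unenriched juvenile 4 for EFTUD2 (-1.03, the others -0.42 to -0.33) and DDX18 (0.23, the others -0.33 to -0.17). HNRNPL was at -0.21 in unenriched juvenile 5 (0.82 to 0.95) and DHX8 on C153R084 at 0.60 in unenriched juvenile 1 (0.24 to 0.34).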

How the results depend on the processing

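The count of the 54 probes past an adjusted p of 0.05 for environment stayed at 0 in X22, in X35 and in both together, and for the interaction, in every alternative run. Counts at an unadjusted p under 0.05 moved, and so did the share of all probes in the same fit, given in brackets. For X22 and X35 together (2 probes, 9.61%) they were 1 with scanner values (9.44%), 0 with normexp (6.51%), 0 with scaling (8.45%) and 0 with array weights (9.6%). They were 1 with slide as a random block (9.26%) and 6 with slide as a fixed block (9.56%). Without X35 juveniles 3 to 5 (chosen after seeing the data) the count was 4 (11.8%). Leaving out 1 juvenile gave 0 to 4 (7.77 to 11.3%). In X22 (3 probes, all higher in enriched juveniles, 10.4%) they were 1 with scaling (9.52%), 5 with a fixed slide block (6.55%) and 1 to 6 leaving out 1 juvenile (7.71 to 13.8%). With normexp the X22 count was also 3, but all 3 were lower in enriched juveniles and 0 were higher (7.24%). In X35 (0 probes, 4.95%) they were 1 with array weights (6.39%) and 5 with a fixed slide block (8.28%). They were 6 without enriched juveniles 3 to 5 (11.4%), 7 without these in both environments (9.11%) and 0 to 4 leaving out 1 juvenile (3.72 to 6.36%). For the interaction (0 probes, 5.87%) they were 1 with normexp (5.57%), 4 with array weights (7.07%) and 3 with a fixed slide block (6.17%). They were 4 without enriched X35 juveniles 3 to 5 (8.44%) and 2 without both environments' juveniles 3 to 5 (6.63%). Leaving out 1 juvenile gave 0 to 3 (4.34 to 7.46%).

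The count between families (15 at an adjusted p, 11.8% of all probes) was 34 with array weights (26.1% of all probes). It was 0 with a fixed slide block (0.298%), 0 without enriched X35 juveniles 3 to 5 (1.61%) and 0 without those of both environments (0.398%). Leaving out 1 juvenile gave 8 to 27 (7.04 to 16.8%). The median environment difference of the 54 probes was 0.0262 to 0.1665 leaving out 1 juvenile. Of 331 single-probe values under the other alternatives, 1 reversed: TDRD9 in X22 and X35 together, at -0.0213 with a fixed slide block against 0.158. The cause was not tested. Replicate numbers were not taken as pairs, since no label gives them a shared origin and not every same-numbered pair of juveniles deviated together in any family (correlations over 0.1 in 0 of 5 pairs of X11, 1 of 5 of X22 and 4 of 5 of X35, there 0.049 to 0.577). With a replicate block the count was 24 between families at an adjusted p (15% of all probes). At an unadjusted p under 0.05 it was 3 in X35 (7.96%) and 1 for the interaction (6.71%). Probes under the Cy5 limit and the 5 juveniles per tank limit the precision.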
